A study of Rattus norvegicus with 19 samples.

Results

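The nuclear-encoded subunits of respiratory complex I were followed in renal cortex of rats with and without streptozotocin-induced diabetes, and in diabetic rats fed enarodustat. Members were all non-control probes whose gene name in the scanner files began with Ndufa, Ndufb, Ndufc, Ndufs or Ndufv. The assembly factors (names beginning with Ndufaf) and Ndufa4 and Ndufa4l2, which are not complex I subunits, were left out. This gave 35 of 36174 gene names, read by 43 of 45598 probes. Ndufb4 had 3 probes, and Ndufa10l1, Ndufa7, Ndufa8, Ndufab1, Ndufb3 and Ndufv3 had 2 each. Where a gene had several probes, the one with the highest mean stands for it. All 43 probes were well above background and none was saturated on any of the 19 arrays. The names Ndufa3, Ndufa13 and Ndufb1 were not among the members, nor were the subunits encoded in mitochondrial DNA under their own symbols. Outside these members, 4 subunit-like probes were fitted too, and none was called in any comparison of the groups.

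Complex I, or NADH:ubiquinone oxidoreductase, takes electrons from NADH, passes them along iron-sulfur clusters to ubiquinone and pumps protons across the inner mitochondrial membrane. Its N module binds and oxidises NADH, its Q module reduces ubiquinone, and its membrane arm, with a proximal part beside the Q module and a distal part at the far end, moves the protons. A small catalytic core is shared with bacteria, and the other subunits are accessory ones that stabilise the enzyme or are needed to assemble it. Kidney cortex is rich in mitochondria because tubule cells, above all those of the proximal tubule and thick ascending limb, spend much ATP on reabsorbing solutes.

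All animals were male Crl:CD (SD) rats, and their age is not given in the sources used here. The 5 Sham rats received vehicle intravenously and normal feed. The 7 rats called DKD, for diabetic kidney disease, received 65 mg/kg of streptozotocin intravenously, a toxin taken up by the insulin-producing beta cells of the pancreas, and normal feed. The 7 rats of the DKD+enarodustat group were injected in the same way and then given feed containing 0.01% (w/w) of enarodustat. Enarodustat inhibits prolyl hydroxylases, the oxygen-dependent enzymes through which hypoxia-inducible factor (HIF) is degraded. The injection was given 7 days before grouping, and the kidneys were taken 14 days after grouping. Of 19 rats injected with streptozotocin, 14 were used, spread over both diabetic groups so that blood glucose and body weight were alike. Each rat gave 1 array of total RNA labelled with Cy3. Levels below are log2 intensities minus the 75th percentile of the same array, so that 0 is the 75th percentile and a difference of 1 is a doubling. In RNA of whole cortex, fewer cells of a type and less RNA per cell cannot be told apart.

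Each of 3 slides carried arrays of every group. The position within a slide was tied to the group: Sham arrays took row 1, treated arrays took row 2, and of the DKD arrays only replicates 2 and 4 were in row 2. Probes well above background made up 61.0% to 66.8% of all probes in Sham, 54.7% to 67.3% in DKD and 54.4% to 62.9% in DKD+enarodustat. Within DKD this share averaged 65.4% in the 5 arrays of row 1 and 56.2% in the 2 of row 2. Between them, 29 of 35 subunits were lower in row 2, with a median difference of -0.06, which was also the median of all kept probes (-0.06, with 61.9% of them below 0). The same DKD replicates 2 and 4 had the highest adipocyte markers of the group, with a median over the markers of 4.85 and 5.03 above Sham where the other 5 had 0.71 to 3.48. Their erythroid markers were at 1.51 and 1.83, where the others had -0.97 to 0.66, and their proximal tubule markers at -0.34 and -0.41, where the others had -0.31 to -0.11. Row therefore moves with the groups, and the part of row and of these markers in the results was not tested beyond the fits given below.

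The probes of Ndufa11 and Ndufv3, which are among the subunits called lower in DKD against Sham below, are shown first because those of Ndufv3 separate its transcript variants. Ndufa11 is an accessory subunit of the proximal membrane arm, and Ndufv3 is an accessory subunit of the N module that is made in a long and a short form by splicing. On the rat build rn4 used by the scanner files, the Ndufa11 probe spans chr Un:25058436-25061306 on the minus strand, over a splice junction, and that chromosome name marks sequence without a placed position. The Ndufv3 variant 1 probe lies at chr20:9957258-9957317 on the plus strand. The variant 2 probe spans chr20:9952694-9960046 on the same strand, joining exonic sequence from either side of the stretch that the variant 1 probe reads. All 3 are 60 bases long and stay in an open reading frame, and no capitals are used.
Ndufa11 probe: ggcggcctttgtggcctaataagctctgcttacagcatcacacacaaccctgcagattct
Ndufv3 variant 1 probe: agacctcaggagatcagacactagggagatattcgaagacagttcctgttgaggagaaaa
Ndufv3 variant 2 probe: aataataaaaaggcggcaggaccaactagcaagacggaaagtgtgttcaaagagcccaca

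In diabetic cortex the subunits stood slightly below Sham, and 3 of 43 probes fell: Ndufb8, Ndufv3 (variant 2 probe) and Ndufa11, by 0.25, 0.28 and 0.23 on the log2 scale, or 1.19-fold, 1.22-fold and 1.17-fold. No subunit rose. Among all 30259 kept probes, 16.9% were called in either direction, 7.67% as higher and 9.23% as lower, so the 3 calls are no larger a share than in the rest of the array. The median difference over the 35 subunits was -0.08, against -0.03 over all kept probes, and 28 of 35 lay below 0, where 54.6% of all kept probes did. Differences ran from -0.28 for Ndufv3 to 0.14 for Ndufs4, and 9 subunits had an unadjusted p under 0.05, where 28.8% of kept probes did. These values are from limma fitted to all kept probes with Benjamini-Hochberg adjustment.

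**Figure D1:**
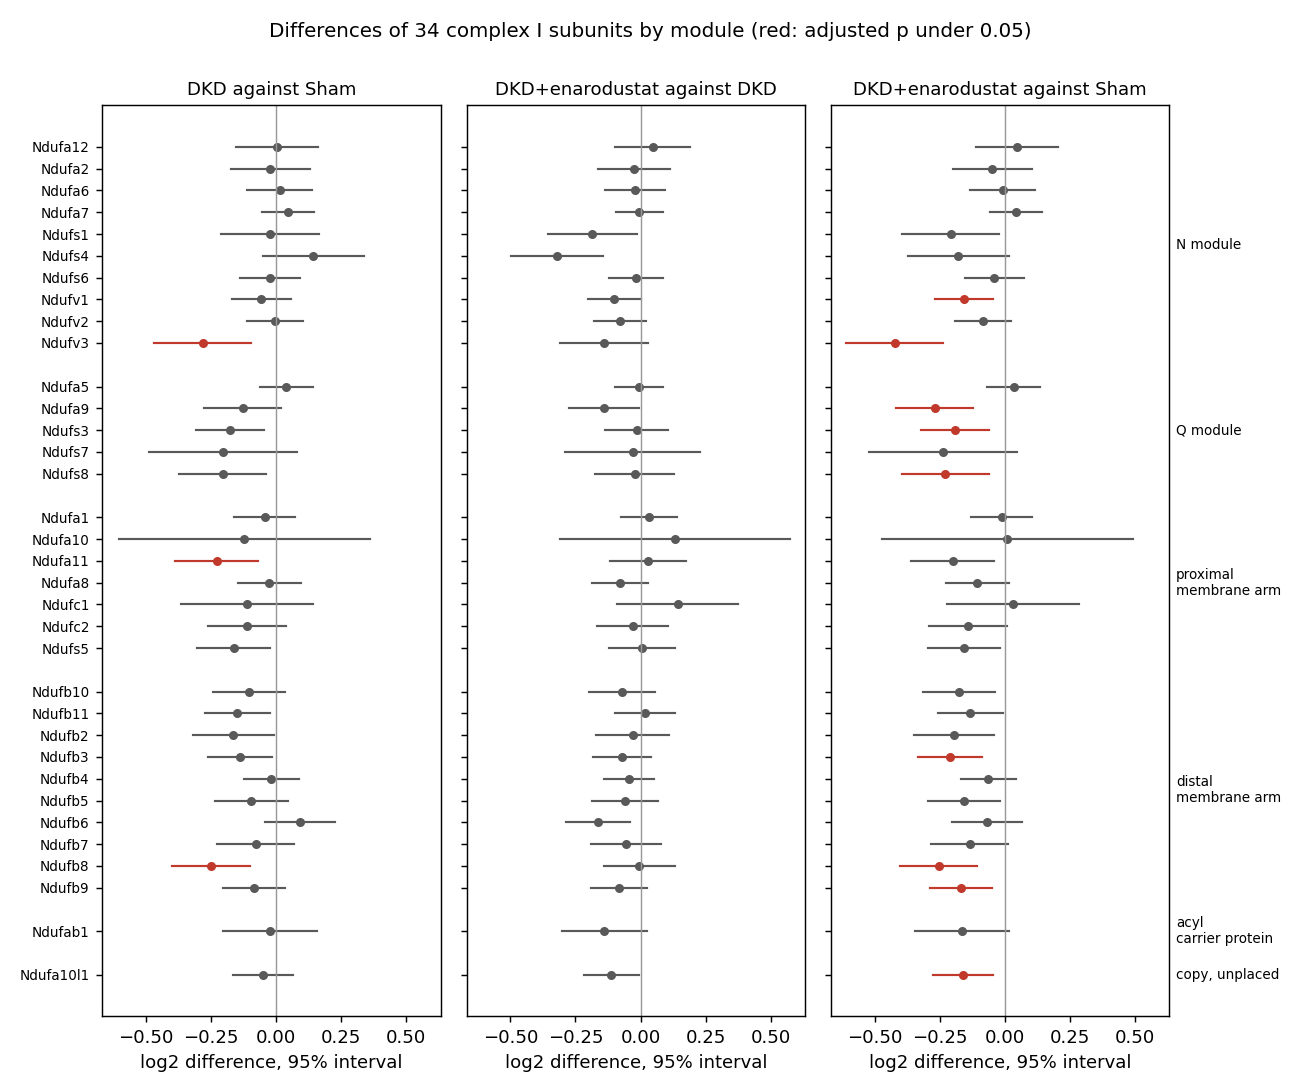
Log2 differences of 34 of the 35 subunits with 95% intervals in the 3 comparisons, ordered by module, with subunits of adjusted p under 0.05 in red. In DKD against Sham 3 subunits are red, in DKD+enarodustat against DKD none, and in DKD+enarodustat against Sham 9, all of them to the left of 0.

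Ndufb8 is an accessory subunit of the distal membrane arm whose protein is often used as a marker of assembled complex I. Its levels were 5.72, 5.76, 5.87, 5.72 and 5.64 in the 5 Sham arrays, while the 7 DKD arrays had a lowest, median and highest level of 5.38, 5.48 and 5.63. Every DKD array lay below every Sham array, though the closest pair was nearly level. The difference was -0.25 (SE 0.071, 95% interval -0.40 to -0.10, adjusted p = 0.0211 by limma). Levels that did not overlap and were lower in DKD were found for 3 of the 35 subunits, Ndufb8, Ndufv3 and Ndufs8, where 5.98% of kept probes had them.

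The variant 2 probe of Ndufv3 read 2.69, 2.67, 2.95, 2.68 and 2.78 in Sham, and 2.29, 2.54 and 2.61 as lowest, median and highest in DKD. All DKD arrays were lower than all Sham arrays. The difference was -0.28 (SE 0.089, 95% interval -0.47 to -0.10, adjusted p = 0.036 by limma). With the replicate number as a block it was -0.26 and no longer passed, with an adjusted p of 0.0714.

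Ndufa11, which in the assembled enzyme sits where complex I meets complex III in the respiratory supercomplex, read 1.50, 1.33, 1.67, 1.73 and 1.58 in Sham and had a lowest, median and highest level of 1.17, 1.34 and 1.50 in DKD. The groups overlapped: Sham replicates 1 and 2 lay within the range of the DKD arrays and the other 3 Sham arrays above it. The difference was -0.23 (SE 0.076, 95% interval -0.39 to -0.07), with an adjusted p of 0.0457 by limma, just under the threshold.

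**Figure D2:**
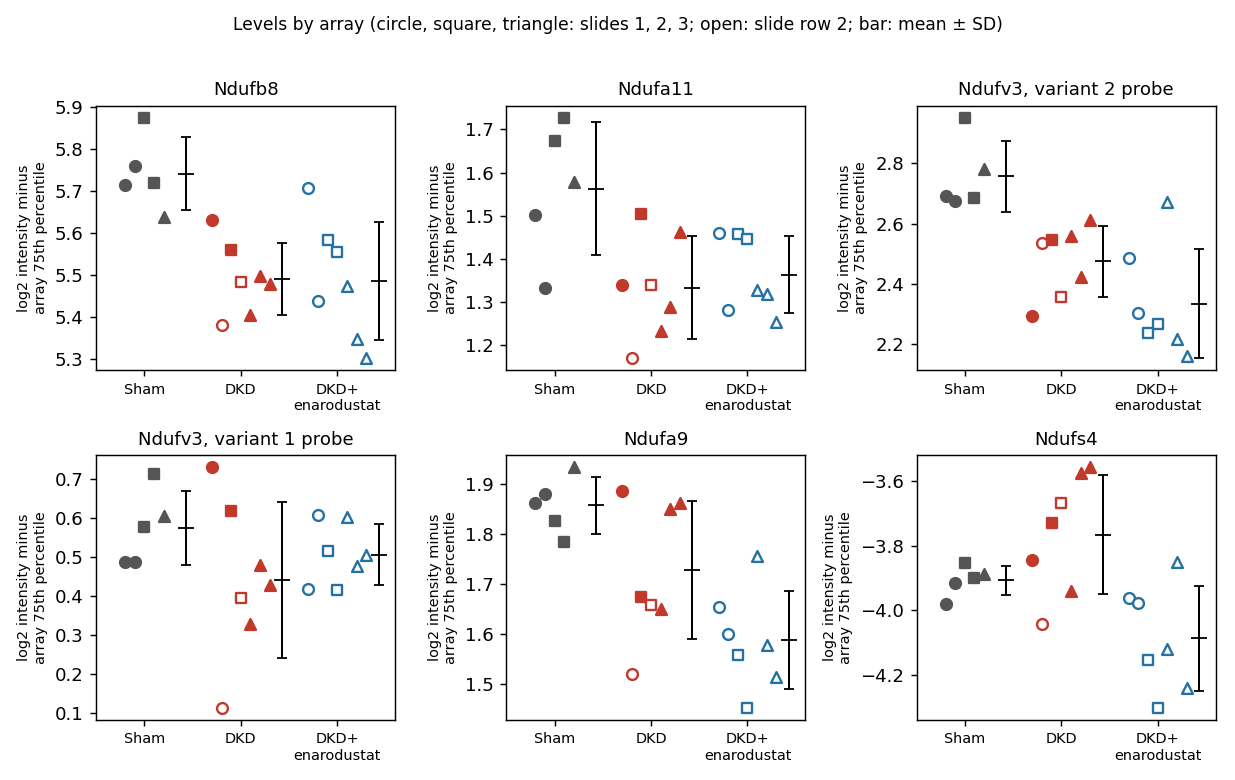
Levels of 6 probes by array (log2 intensity minus the array's 75th percentile) in the 5 Sham, 7 DKD and 7 DKD+enarodustat arrays, with marker shape for the slide, open markers for slide row 2 and bars for mean and SD. Ndufb8 and the variant 2 probe of Ndufv3 sit below Sham in all 7 DKD arrays, and Ndufs4 has its highest arrays in DKD and its lowest in DKD+enarodustat.

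The 7 nuclear catalytic subunits showed no call in DKD against Sham, with a median difference of -0.06. Those of the N module were close to Sham. Ndufv1, which holds the flavin that accepts electrons from NADH, differed by -0.06 (95% interval -0.17 to 0.06), Ndufv2, which carries an iron-sulfur cluster, by -0.00 (-0.11 to 0.10), and Ndufs1, the largest subunit with several such clusters, by -0.02 (-0.21 to 0.16). In the Q module, Ndufs3, needed early in assembly, read 3.03, 3.29, 3.20, 3.30 and 3.10 in Sham and 2.91, 3.00 and 3.11 as lowest, median and highest in DKD, a difference of -0.18 (95% interval -0.31 to -0.05, adjusted p = 0.0607 by limma). Ndufs8, which holds iron-sulfur clusters on the way to ubiquinone, read 1.40, 1.45, 1.53, 1.42 and 1.37 in Sham and 1.01, 1.27 and 1.37 in DKD. Its groups touched without overlapping, and the difference of -0.21 (95% interval -0.37 to -0.04) had an adjusted p of 0.0863. Ndufs7, with the cluster next to ubiquinone, differed by -0.21 (-0.49 to 0.08), a wide interval.

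By module, the median difference between DKD and Sham was -0.01 over 10 subunits of the N module, -0.15 over 6 of the Q module, -0.11 over 7 of the proximal membrane arm and -0.10 over 10 of the distal membrane arm. All 7 proximal and 9 of 10 distal subunits lay below 0, against 6 of 10 in the N module. Whether modules differ from each other was not tested. Besides the called Ndufa11, the proximal arm held Ndufs5 at -0.16 (adjusted p = 0.101) and Ndufc2 at -0.11 (adjusted p = 0.334), and besides Ndufb8 the distal arm held Ndufb11 at -0.15 (0.0959), Ndufb3 at -0.14 (0.121) and Ndufb2 at -0.16 (0.145), all by limma and none called. Ndufb6 was the distal subunit above 0, at 0.09 (95% interval -0.04 to 0.23).

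The 3 calls were sensitive to the arrays and to the scaling. Without Sham replicate 3 no probe passed (Ndufb8 at -0.22, adjusted p = 0.0693), where 12.9% of all kept probes did. Only 1 passed without Sham replicate 5, DKD replicate 4 or DKD replicate 6, where 14.6%, 15.2% and 15.8% of all kept probes did. The Ndufv3 call was lost without any 1 of these 4 arrays, Sham replicate 1 or DKD replicate 1 (-0.30 to -0.23, adjusted p 0.0505 to 0.112), and the Ndufa11 call in 23 of 38 alternatives. Among these were the fits without Sham replicate 1, 3, 4 or 5, DKD replicate 1, 2, 4, 5 or 6, or DKD+enarodustat replicate 1, 2, 5 or 6 (-0.25 to -0.19, adjusted p 0.0505 to 0.133). With quantile normalisation 15 of 43 probes passed, where 17.1% of all kept probes did, and with the values of the authors' deposited table the count was 24 of 43, where 30.8% of its 22739 tested probes did, all of them as lower. Of all calls in this comparison 45.4% were higher in the main setting and 33.6% after normexp correction and quantile normalisation, under which 22 subunit probes passed, where 18.6% of all kept probes did. With the replicate number as a block Ndufb2 passed (-0.17, adjusted p = 0.0476) and Ndufv3 did not, and with slide as a block 5 passed, where 21.9% of all kept probes did: the same 3, Ndufb2 and Ndufs5. None passed, at a median of -0.05, once slide row entered the fit or when DKD replicates 2 and 4 were left out, where 12.9% of all kept probes passed in either case.

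**Figure D3:**
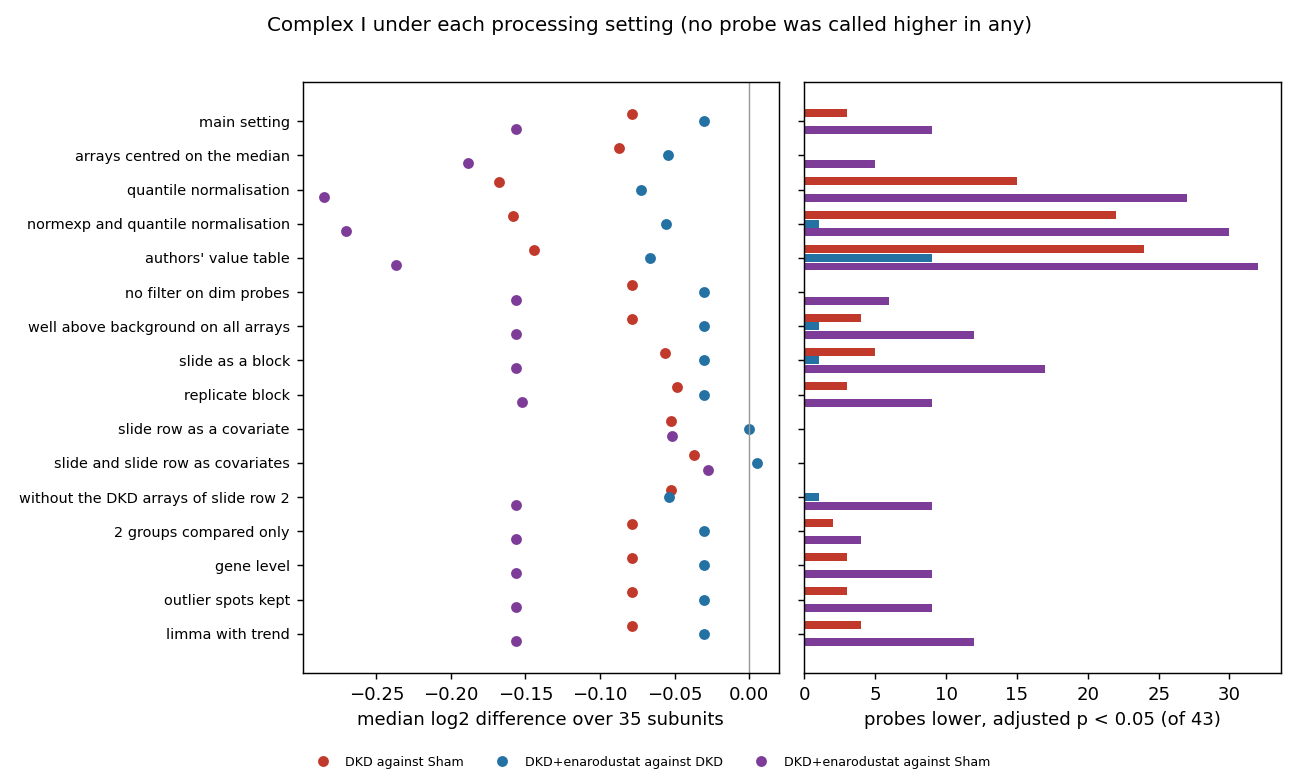
The median log2 difference over the 35 subunits (left) and the number of the 43 probes called lower (right) in the 3 comparisons under the main and 15 other processing settings. Counts in DKD against Sham run from 0 to 24 and in DKD+enarodustat against Sham from 0 to 32, and with slide row as a covariate all 3 counts are 0.

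In DKD+enarodustat against DKD no subunit passed the test: 0 of 43 probes were called by limma, where 1.93% of all kept probes were, 1.00% as higher and 0.932% as lower. By unadjusted p under 0.05 there were 5, where 13.9% of kept probes had one, and 9 of 43 passed in the authors' deposited value table under the same limma fit, all lower, where 9.63% of its 22739 tested probes did. The median over the 35 subunits was -0.03, which equals the median of all kept probes (-0.03), and 28 of 35 were below 0, where 56.3% of kept probes were. For 25 of 35 subunits the 95% interval of the difference lay within 0.25 of 0 in either direction, and for 34 of 35 within 0.5. The exception was Ndufa10.

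The 3 subunits called lower in DKD did not pass against DKD under enarodustat. Ndufb8 had a lowest, median and highest level of 5.30, 5.47 and 5.71 in the 7 DKD+enarodustat arrays, and differed from DKD by -0.00 (95% interval -0.14 to 0.13). Ndufa11 read 1.25, 1.33 and 1.46, a difference of 0.03 (-0.12 to 0.18). The variant 2 probe of Ndufv3 read 2.16, 2.27 and 2.67, a difference of -0.14 (-0.31 to 0.03). Each of these comparisons uses the same 7 DKD arrays as the one against Sham, so the pairs of values are not independent.

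The subunit nearest to a call was Ndufs4, an accessory subunit of the N module whose loss causes Leigh syndrome in people and in mice. It read -3.98, -3.92, -3.86, -3.90 and -3.89 in Sham, had a lowest, median and highest level of -4.04, -3.73 and -3.56 in DKD, and of -4.30, -4.12 and -3.85 in DKD+enarodustat. The DKD arrays were spread on both sides of the tight Sham group, and DKD+enarodustat arrays reached lower than any array of the other groups. The difference from DKD was -0.32 (SE 0.084, 95% interval -0.50 to -0.14, adjusted p = 0.0587 by limma). It passed in 6 of 38 alternatives, among them with slide as a block (-0.32, adjusted p = 0.0472), without DKD replicate 2 (-0.37, adjusted p = 0.0263), and without DKD+enarodustat replicate 6 (-0.36, adjusted p = 0.0332), and was closest to 0 within slide 1, at -0.03. The Ndufs4 probe is a dim one, with a mean of -3.92 over all arrays, though well above background on all 19.

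The other 4 subunits with an unadjusted p under 0.05 were lower too. Ndufs1 had levels of 2.64, 2.98 and 3.18 (lowest, median, highest) in DKD and 2.54, 2.79 and 3.03 in DKD+enarodustat, a difference of -0.18 (95% interval -0.36 to -0.01, adjusted p = 0.311). Ndufb6, of the distal arm, went from 4.04, 4.13 and 4.33 to 3.79, 4.03 and 4.13, a difference of -0.16 (-0.28 to -0.04, adjusted p = 0.187). Ndufa9, which binds a nucleotide cofactor at the joint between the arms, differed by -0.14 (-0.28 to -0.01, adjusted p = 0.333) and Ndufa10l1 by -0.11 (-0.22 to -0.01, adjusted p = 0.319), all by limma. In each of the 4 the arrays of both groups overlapped. Ndufc1, in the proximal arm, was the highest standing probe at 0.14 (-0.09 to 0.38). By module the medians were -0.05 (N), -0.03 (Q), 0.03 (proximal) and -0.06 (distal).

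In DKD+enarodustat against Sham 9 of 43 probes fell and none rose, where 26.4% of all kept probes were called in either direction, 9.62% as higher and 16.8% as lower. An unadjusted p under 0.05 was found for 18 probes, where 37.2% of kept probes had one. The median over the 35 subunits was -0.16, against -0.05 over all kept probes, and 30 of 35 lay below 0, where 56.9% of kept probes did. The comparison joins the effects of diabetes and treatment, and it shares its Sham arrays with the first comparison and its treated arrays with the second.

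The 9 spread over the N module (Ndufv3 at -0.42, Ndufv1 at -0.16), the Q module (Ndufa9 at -0.27, Ndufs8 at -0.23, Ndufs3 at -0.19) and the distal arm (Ndufb8 at -0.25, Ndufb3 at -0.21, Ndufb9 at -0.17), with Ndufa10l1, placed in no module, at -0.16. Adjusted p by limma ran from 0.00182 for Ndufv3 to 0.0404 for Ndufs8. Of the catalytic subunits 3 of 7 fell, and the 7 subunits placed in the proximal arm, which leave out Ndufa10l1, had no call. Ndufa9 read 1.86, 1.88, 1.83, 1.78 and 1.93 in Sham, 1.52, 1.67 and 1.89 as lowest, median and highest in DKD, and 1.45, 1.58 and 1.76 in DKD+enarodustat. All treated arrays lay below Sham, and each DKD array lay in one of these ranges. Ndufb3, a small subunit of the distal arm, read 5.32, 5.37, 5.40, 5.43 and 5.37 in Sham, 5.15, 5.20 and 5.42 in DKD and 5.06, 5.16 and 5.28 in DKD+enarodustat. Here too the treated arrays were all below Sham. Ndufv1 read 4.01, 3.95, 3.98, 4.08 and 4.13 in Sham and 3.76, 3.89 and 3.98 in DKD+enarodustat, with overlap. Non-overlapping lower levels were seen in 5 subunits (Ndufv3, Ndufa9, Ndufb3, Ndufs8 and Ndufa10l1), where 9.11% of kept probes had them.

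Medians by module were -0.07 (N), -0.21 (Q), -0.10 (proximal) and -0.16 (distal, with 10 of 10 below 0). With the replicate number as a block the count was again 9, where 29.2% of all kept probes passed, but only 6 of the 9 were kept. Ndufb9 (-0.17, adjusted p = 0.0669), Ndufs3 (-0.18, adjusted p = 0.0783) and Ndufv1 (-0.15, adjusted p = 0.0807) were lost, and Ndufa11 (-0.19, adjusted p = 0.0388), Ndufb2 (-0.20, adjusted p = 0.0162) and Ndufs1 (-0.24, adjusted p = 0.0261) were gained. With slide as a block all 9 were kept and 8 gained, which gave 17 where 32.8% of all kept probes passed. In the fit with a term for slide row, in which only the DKD group holds both rows, none passed, where 4.28% of all kept probes did, the median was -0.05 and Ndufv3 stood at -0.38 (adjusted p = 0.208). Ndufv3, Ndufa9, Ndufb3 and Ndufb8 passed whichever array was left out. The other calls were lost without some arrays: Ndufb9 without Sham replicate 1, 2 or 5 or DKD+enarodustat replicate 2, 4, 6 or 7 (-0.17 to -0.14, adjusted p 0.0544 to 0.0904), and Ndufs8 without Sham replicate 1, 2, 3 or 4 or DKD+enarodustat replicate 2, 4 or 7 (-0.24 to -0.19, adjusted p 0.0611 to 0.103). Ndufa10l1 was lost without Sham replicate 1, 3, 4 or 5 or DKD+enarodustat replicate 4, 6 or 7 (-0.17 to -0.14, adjusted p 0.0505 to 0.0956), Ndufv1 without Sham replicate 1, 4 or 5 or DKD+enarodustat replicate 4, 6 or 7 (-0.16 to -0.13, adjusted p 0.0575 to 0.103), and Ndufs3 without Sham replicate 2, 3 or 4 or DKD+enarodustat replicate 2, 6 or 7 (-0.19 to -0.16, adjusted p 0.0516 to 0.0911). The count was 4 without DKD+enarodustat replicate 7, where 23.5% of all kept probes passed. It was 5 without Sham replicate 1 or 4 or DKD+enarodustat replicate 4 or 6, where 22.8%, 22.5%, 27.4% and 24.6% of them passed. With quantile normalisation 27 passed, where 28.4% of all kept probes did, and the median was -0.28, where all kept probes had a median of -0.11.

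Per array, the 35 subunits were set against their Sham means and the median was taken. The result summarises the same values as above and is centred on Sham by construction. This median was -0.04 to 0.01 in the 5 Sham arrays, -0.14 to 0.01 in the 7 DKD arrays and -0.23 to -0.04 in the 7 DKD+enarodustat arrays. The mean was -0.07 ± 0.06 (SD) over the DKD arrays and -0.14 ± 0.07 (SD) over the treated arrays. DKD ranged from the Sham level to the middle of the treated arrays. In DKD the mean was -0.05 over the 5 arrays of row 1 and -0.13 over the 2 of row 2.

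**Figure D4:**
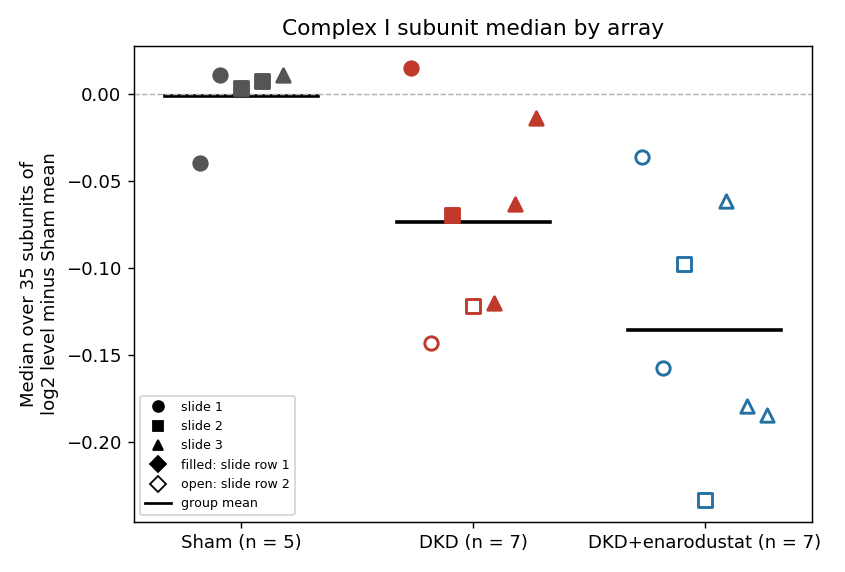
Median over the 35 subunits of the log2 level minus its Sham mean, for each of the 19 arrays, with marker shape for the slide, open markers for slide row 2 and a bar for the group mean. Sham sits between -0.04 and 0.01, DKD between -0.14 and 0.01 with its 2 row 2 arrays among the lowest, and DKD+enarodustat between -0.23 and -0.04.

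The subunits varied little between arrays of a group. Their within-group SD had a median of 0.0988, against 0.257 over all kept probes, from 0.0541 for Ndufa7, an N module subunit, to 0.407 for Ndufa10, a proximal subunit with a kinase-like fold. The Ndufa10 probe is a dim one, with levels from -3.97 to -2.18 in DKD+enarodustat, and its interval of -0.31 to 0.57 against DKD is the widest of all the subunits there.

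The probes of Ndufv3 differed in how they moved. The variant 1 probe read 0.49, 0.49, 0.58, 0.71 and 0.61 in Sham, had a lowest, median and highest level of 0.11, 0.43 and 0.73 in DKD, and of 0.42, 0.51 and 0.61 in DKD+enarodustat. Its groups overlapped throughout, and its differences were -0.13 (DKD against Sham, 95% interval -0.31 to 0.05), 0.06 (DKD+enarodustat against DKD, -0.10 to 0.23) and -0.07 (DKD+enarodustat against Sham, -0.25 to 0.11). The variant 2 reading minus the variant 1 reading of the same array, which does not depend on how arrays are scaled by a constant, was 1.97 to 2.37 in Sham, 1.56 to 2.42 in DKD and 1.65 to 2.07 in DKD+enarodustat. The group means of this measure were 2.18 (n = 5), 2.03 (n = 7) and 1.83 (n = 7).

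Between DKD+enarodustat and Sham the measure was lower by -0.35 (two-sided exact permutation test p = 0.00631, adjusted over the 3 comparisons 0.0189). For DKD against Sham it was -0.15 (exact permutation p = 0.309, adjusted 0.309) and for DKD+enarodustat against DKD -0.21 (exact permutation p = 0.124, adjusted 0.186). The measure was chosen after the values were seen. The difference between DKD+enarodustat and Sham stayed between -0.44 and -0.31 in the alternatives run on it, within each slide too, where the smallest p that 1 slide allows is 0.25 or 0.333. Row and group cannot be told apart in it. Within row 2, the 7 treated arrays differed from the 2 DKD arrays by -0.36 (exact permutation p = 0.0833), and within row 1 DKD differed from Sham by -0.21 (exact permutation p = 0.159). Without DKD replicate 1, DKD+enarodustat against DKD was -0.28 (exact permutation p = 0.0239, unadjusted).

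Of the 7 genes with several probes, Ndufv3 had the widest gap between its probes in DKD+enarodustat against Sham (0.35, next Ndufa7 at 0.21). In DKD against Sham the widest was that of Ndufab1 (0.21, against 0.15 for Ndufv3), and in DKD+enarodustat against DKD that of Ndufb3 (0.29, against 0.21 for Ndufv3). The Ndufa7 and Ndufa8 probes differed by at most 0.12 and 0.06 in this pair of comparisons. The second probes of Ndufab1 and Ndufb3 are dim, with means of -4.69 and -4.32 over all arrays, against 3.18 and 5.25 for the standing probes. The SE was 0.18 for the second Ndufab1 probe in DKD against Sham and 0.14 for the second Ndufb3 probe in DKD+enarodustat against DKD. The 3 Ndufb4 probes, of which 2 overlap, differed from each other by at most 0.09 in any comparison, and the Ndufa10l1 probes by at most 0.04. The second Ndufb3 probe, at chr9:57262705-57262764 on the minus strand of rn4, lies on the strand opposite to the standing probe at chr9:57262874-57262933, and it was 0.22 above DKD under enarodustat (95% interval -0.06 to 0.51, adjusted p = 0.519) where the standing probe was at -0.07. Some names are uncertain. The Ndufs6 probe maps to a symbol that RefSeq lists for a pseudogene copy of Ndufs6. On rn4 the Ndufa10 probe, at chr9:91661939-91661998, lies between the 2 Ndufa10l1 probes, at chr9:91655487-91655546 and chr9:91676399-91676458. All 3 are on the minus strand. Whether these names stand for 1 gene or for copies of it was not tested, and Ndufa10l1 was placed in no module.

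Promoter sequence in RefSeq's rat assembly GRCr8 was matched by symbol for 31 of the 35 genes. The 250 bases before the start are shown for the 3 genes called lower in DKD, on each gene's own strand, to set side by side what they hold. They lie at chr9:1637364-1637613 (plus strand) for Ndufa11, chr1:253362937-253363186 (minus strand) for Ndufb8 and chr20:9613536-9613785 (plus strand) for Ndufv3. Capitals mark overlapping matches to the core of the nuclear respiratory factor 1 (NRF-1) site, GCATGCGC on either strand, in Ndufa11, and a match to GCGTG, a form of the core to which HIF binds, in Ndufv3.
Ndufa11 promoter: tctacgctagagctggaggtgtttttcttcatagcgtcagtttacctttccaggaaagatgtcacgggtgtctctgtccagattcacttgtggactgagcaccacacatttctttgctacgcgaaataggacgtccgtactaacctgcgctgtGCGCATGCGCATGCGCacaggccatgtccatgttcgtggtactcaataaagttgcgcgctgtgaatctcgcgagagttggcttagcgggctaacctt
Ndufb8 promoter: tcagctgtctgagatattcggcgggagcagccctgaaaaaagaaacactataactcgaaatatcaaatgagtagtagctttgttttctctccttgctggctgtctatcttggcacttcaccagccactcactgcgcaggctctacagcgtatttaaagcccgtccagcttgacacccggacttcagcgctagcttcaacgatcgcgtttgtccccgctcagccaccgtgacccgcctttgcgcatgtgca
Ndufv3 promoter: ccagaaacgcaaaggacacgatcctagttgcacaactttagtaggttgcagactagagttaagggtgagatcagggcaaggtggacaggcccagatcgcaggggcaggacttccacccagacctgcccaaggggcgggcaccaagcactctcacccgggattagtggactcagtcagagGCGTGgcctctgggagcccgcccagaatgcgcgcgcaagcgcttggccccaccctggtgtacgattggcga

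Among the 31 matched promoters, searched on both strands, the NRF-1 core was found upstream of 2 (6.45%, where 2.2% of 33469 promoters of the same length held it), Ndufa11 and Ndufa6. The core of ETS factors, CCGGAAG, was found upstream of 6 (19.4%, where 7.27% did), namely Ndufa1, Ndufa2, Ndufa6, Ndufb7, Ndufs1 and Ndufs8. The YY1 motif AAGATGGCG was found upstream of none, and in 7 when the 50 bases after the start were included (22.6%, where 1.73% did), among them Ndufb8, Ndufa9 and Ndufs4. Either form of the HIF core, ACGTG or GCGTG, which are short and can overlap other motifs, lay upstream of 15 (48.4%, where 36.7% did). These are matches of letters and show no binding.

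Genes that act on complex I or beside it were read from lists chosen with the subunits. Of 19 measured assembly factors, which build the enzyme but are not part of it, 1 rose in DKD against Sham and none fell. Of all kept probes 7.67% rose and 9.23% fell in that comparison. Ndufaf6 had a lowest, median and highest level of -0.50, 0.11 and 0.71 in Sham and 0.36, 0.79 and 1.03 in DKD, a difference of 0.71 (SE 0.209, adjusted p = 0.0261 by limma). The Sham arrays were widely spread and reached into the DKD range, and the call was lost with the replicate number as a block (0.67, adjusted p = 0.0767) and without Sham replicate 1 or 2 or DKD replicate 2 or 7 (0.58 to 0.66, adjusted p 0.0502 to 0.0842).

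In DKD+enarodustat against DKD 1 of the 19 assembly factors fell, where 0.932% of all kept probes did. This was Ndufaf4, which joins an early assembly step. It read between -0.47 and -0.16 in Sham, had a lowest, median and highest level of -0.44, -0.34 and -0.05 in DKD, and of -0.79, -0.64 and -0.50 in DKD+enarodustat. All treated arrays lay below all DKD arrays, where 0.572% of kept probes did. The difference was -0.35 (SE 0.068, adjusted p = 0.0102 by limma), and the other 2 Ndufaf4 probes stood at -0.40 (adjusted p = 0.105) and -0.34 (adjusted p = 0.0921). With a term for slide row it was -0.36 (adjusted p of 0.202), and within the 3 slides it was -0.28, -0.32 and -0.40. In DKD+enarodustat against Sham 6 of 19 assembly factors fell, where 16.8% of all kept probes did.

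Ndufa4, once counted with complex I and now placed in complex IV, read 4.88 to 4.99 in Sham, 4.64 to 4.89 in DKD and 4.41 to 4.72 in DKD+enarodustat. Its differences were -0.15 (adjusted p = 0.133) in DKD against Sham, -0.21 (adjusted p = 0.0813) in DKD+enarodustat against DKD and -0.36 (adjusted p = 0.000539) in DKD+enarodustat against Sham, of which the last passed. With the replicate number as a block all 3 passed (-0.18 with an adjusted p of 0.0345 and -0.21 with an adjusted p of 0.0344 in the first pair). Its paralog Ndufa4l2, a HIF target that lowers complex I activity, was not called, at -0.61 (adjusted p = 0.135) and 0.38 (adjusted p = 0.537) in the first pair of comparisons. Ndufa4l2 read very low, at -6.33 to -5.71 in Sham, -7.28 to -6.02 in DKD and -7.10 to -5.52 in DKD+enarodustat. Its second probe was not called either, at -0.61 (adjusted p = 0.424) and 1.17 (adjusted p = 0.17), and against Sham the probes had opposite signs under enarodustat, -0.22 and 0.57. Cox4i2, the hypoxia form of a complex IV subunit, stood at 0.10 and 0.00. Its levels split by slide: replicates 3 and 4 of every group, on slide 2, read 0.16 to 0.48, and all other arrays 1.40 to 1.77. Of the 7 hypoxia-linked respiratory chain genes, Higd1a, an inner membrane protein induced by hypoxia, fell in DKD (-0.39, adjusted p = 0.0426) and rose under enarodustat (0.49, adjusted p = 0.0368), and these calls were lost in 18 and 21 of 38 alternatives. Without Sham replicate 2, 3, 4 or 5 or DKD replicate 1, 2, 3, 4 or 5 the first was at -0.42 to -0.30 (adjusted p 0.0533 to 0.125), and without any 1 of those DKD arrays or DKD+enarodustat replicate 3, 5, 6 or 7 the second was at 0.43 to 0.50 (adjusted p 0.0519 to 0.0791). The Higd1a probe is a dim one, with means of -3.40 in Sham, -3.79 in DKD and -3.30 in DKD+enarodustat. Mgarp, a HIF target of mitochondrial transport, rose under enarodustat by 3.70 (adjusted p = 1.46e-07), and was well above background on 4 of 5 Sham, 3 of 7 DKD and 7 of 7 treated arrays. With normexp and quantile normalisation this rise was 1.23 (adjusted p = 2.34e-08).

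Among 16 regulators of mitochondrial biogenesis, 1 rose and 2 fell in DKD against Sham, where 7.67% and 9.23% of all kept probes did. Sirt3, the main mitochondrial deacetylase, rose by 0.57 (SE 0.112, adjusted p = 0.00163). Ppargc1b, a coactivator of mitochondrial genes, fell by 0.44 (SE 0.125, adjusted p = 0.0218), and Nrf1, which encodes NRF-1, by 0.30 (SE 0.097, adjusted p = 0.0395). The Nrf1 probe is a dim one, with means of -3.41 in Sham and -3.72 in DKD. The Ppargc1b call was lost without Sham replicate 1 (-0.36, adjusted p = 0.0709) or 2 (-0.37, adjusted p = 0.0685), and the Nrf1 call without Sham replicate 1, 2, 3 or 5 or DKD replicate 1, 5, 6 or 7 (-0.31 to -0.24, adjusted p 0.0623 to 0.12) and with the replicate number as a block (-0.29, adjusted p = 0.0572). None of the 16 passed in DKD+enarodustat against DKD, where 1.93% of all kept probes did. Ppargc1a was at -0.21 and 0.03, Esrra at -0.08 and -0.14, and Tfam, which packages mitochondrial DNA, at 0.17 and -0.16 in these comparisons, none called.

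Of the other respiratory complexes, none of 7 complex II genes, 9 complex III genes and 10 complex IV genes passed in DKD against Sham, while 4 of 14 ATP synthase genes fell, such as Atp5f1d (-0.23, adjusted p = 0.0157). Of all kept probes 9.23% were called lower in that comparison, 0.932% in DKD+enarodustat against DKD and 16.8% in DKD+enarodustat against Sham. As higher, 7.67% were called in the first of these and 1.00% in the second. Under enarodustat against DKD 1 complex III gene fell, Uqcrc2, a core subunit, at -0.31 (SE 0.053, adjusted p = 0.00319), and no complex II, complex IV or ATP synthase gene passed. The Uqcrc2 call was lost in 6 of 38 alternatives, over which its difference ran from -0.36 to -0.18. In DKD+enarodustat against Sham 3, 3, 0 and 7 genes of complexes II, III, IV and ATP synthase fell. The lists for complexes III and IV and ATP synthase were added after the files were seen. Of 12 transcripts of the mitochondrial genome, which the files give without gene symbols, 1 fell in each of the first pair of comparisons and 5 in DKD+enarodustat against Sham. Of 15 markers of mitochondrial mass, Slc25a4, the adenine nucleotide carrier, fell in DKD (-0.29, adjusted p = 0.0203, but -0.26 and adjusted p = 0.0566 without Sham replicate 5), and Tomm20, an import receptor, fell under enarodustat (-0.24, adjusted p = 0.0423). The Tomm20 call held without DKD replicate 2 or DKD+enarodustat replicate 5 and was lost without any other array (-0.26 to -0.21, adjusted p 0.0507 to 0.0996). Of 7 mitochondrial proteases and mitophagy receptors, the protease Clpx rose in DKD (0.41, adjusted p = 0.04999), the mitophagy receptor Bnip3 rose in DKD (0.46, adjusted p = 0.000159) and again under enarodustat (0.66, adjusted p = 9.08e-06), and Bnip3l rose under enarodustat (0.28, adjusted p = 0.00466). Over 38 alternatives the Bnip3 call was lost in 3 for DKD and in 4 under enarodustat, and the Bnip3l call in 7. The Clpx call held without Sham replicate 2, DKD replicate 6 or DKD+enarodustat replicate 4 and was lost without any other array (0.32 to 0.44, adjusted p 0.05003 to 0.152).

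Markers of the cell types richest in complex I also differed between diabetic and Sham cortex. Of all kept probes 9.23% fell and 7.67% rose in DKD against Sham. Of 7 thick ascending limb markers 5 fell in DKD against Sham, among them Egf (-0.92) and Umod (-0.76), and their summed level was 6.92 to 7.19 in Sham, 5.82 to 6.78 in DKD and 6.10 to 6.84 in DKD+enarodustat. Of 9 proximal tubule markers 5 fell and 2 rose, with summed levels of 8.38 to 8.51, 8.04 to 8.26 and 7.97 to 8.33. Of 6 adipocyte markers 3 rose, with summed levels of -1.26 to -0.50, -0.49 to 3.84 and -0.43 to 2.59. Of 6 tubular injury markers 5 rose and 1 fell. Of 5 podocyte markers 2 fell, with summed levels of 3.36 to 3.65, 2.90 to 3.34 and 2.70 to 3.38, and of 6 collecting duct markers 2 rose, with summed levels of 5.57 to 5.93, 5.87 to 6.19 and 5.82 to 6.38. Of 3 distal convoluted tubule and 4 fibroblast markers 1 each rose, and none of 5 endothelial, 5 leukocyte, 4 erythroid and 4 skeletal muscle markers passed. No marker gene was called in DKD+enarodustat against DKD, where 1.93% of all kept probes were. The part of these markers in the lower subunit levels of DKD and DKD+enarodustat was not tested.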

How the data were processed

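The deposited scanner files of the 19 arrays, 1 per rat, give the Cy3 intensity of each spot, background-subtracted and detrended by Agilent Feature Extraction 11.5.1.1, with positions on rn4, per the file headers. A deposited value table of log2 expression, whose normalisation and centring by the authors are not given in the sources used here, served as an alternative. The submitters' processing notes name limma without a version.

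Outlier spots were left out, the array's 75th percentile was subtracted from log2 intensity, and spots of a probe were averaged. Probes well above background on at least 5 of 19 arrays were kept (30259 of 45598). All groups, taken from the labels, entered one limma fit (version 3.58.1, R 4.3.3, data.table, version 1.17.8; lmFit and eBayes, 16 residual degrees of freedom), with two-sided p-values, Benjamini-Hochberg adjustment over all kept probes within a comparison, and a threshold of 0.05. The script was tested on simulated data without slide or row effects, with shifts larger than any subunit difference of the main setting. That test does not cover smaller differences or the tie of row to group. The number of arrays limits the precision.

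Members and lists were chosen with earlier results of these data known. Named were the nuclear catalytic subunits, every subunit called in the first pair of comparisons, up to 2 per module by smallest adjusted p, subunits whose probes disagree, up to 3 genes per other list, and Ndufa4, Ndufa4l2, Cox4i2, Ppargc1a, Esrra and Tfam. The values of 1 gene are not reported here. Alternatives changed the scaling, background correction (normexp, offset 50), filter, slide, slide row, replicate block, fit and arrays included. Replicate numbers come from the labels. The 17 pairs of arrays with 1 number lie on 1 slide, and their deviations from group means correlated at 0.117 to 0.581, against 0.0608 to 0.503 for other pairs on a slide, so pairing by number and by slide cannot be told apart.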

Additional observations from a re-analysis of the deposited data

Results flagged for a closer look

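Within groups of 5 or 7 arrays, 1 array stood apart from the rest of its group, by the ratio of its gap to the whole range, in 7 of 132 checks (5.30%), which is about the 1 in 20 that chance gives. In Sham, replicate 2 was high for Ndufa7 (4.58, next 4.45) and for the dim Ndufc1 probe (-3.50, next -3.77), and replicate 1 was low for the median over the subunits (-0.0396, next 0.00316). In DKD, replicate 2 was low for Ndufa6, an N module subunit (4.64, next 4.84), replicate 1 for the second Ndufa7 probe (-1.94, next -1.65) and replicate 4 for Ndufs1 (2.64, next 2.96). In DKD+enarodustat, replicate 4 was low for Ndufb6 (3.79, next 3.99). None of the 6 probes was called in DKD against Sham.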

How the results depend on the processing

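Every subunit probe called in any setting was lower, in all 3 comparisons. Numbers of the 43 probes called (3, 0 and 9 for DKD against Sham, DKD+enarodustat against DKD and DKD+enarodustat against Sham) were 0, 0 and 5 with arrays centred on the median, 15, 0 and 27 with quantile normalisation, 22, 1 and 30 with normexp and quantile normalisation, and 24, 9 and 32 in the authors' value table. Of all tested probes 16.9%, 1.93% and 26.4% were called in the main setting, and in these settings 13.7%, 1.22% and 24.6%, then 17.1%, 1.67% and 28.4%, then 18.6%, 2.36% and 30.2%, and then 30.8%, 9.63% and 44.9%. They were 0, 0 and 6 without a filter on dim probes, 4, 1 and 12 for probes above background on all arrays, and 5, 1 and 17 with slide as a block, where 8.95%, 0.757% and 30.3%, then 22.4%, 3.19% and 33.9%, and then 21.9%, 3.68% and 32.8% of all tested probes were called. They were 0, 0 and 0 with slide row, or slide and slide row, as covariates (12.9%, 0.314% and 4.28% of all tested probes, and 15.5%, 0.909% and 5.73%) and within slides 1, 2 and 3 (at most 1.41%). Within row 1 DKD against Sham gave 0 (13.3% of all tested probes), and within row 2, an alternative chosen after seeing the data, DKD+enarodustat against DKD gave 0 (0.0496%). Without the DKD arrays of row 2 they were 0, 1 and 9 (12.9%, 2.02% and 26.5%), and with 2 groups fitted alone 2, 0 and 4 (16.5%, 1.09% and 24.2%). With the replicate block they were 3, 0 and 9 (18.05%, 2.50% and 29.2%), and the subunit calls it gained and lost are those given above. Leaving out 1 array gave 0 to 4, 0 to 1 and 4 to 11, where 12.9% to 17.8%, 1.14% to 1.98% and 21.6% to 27.4% of all tested probes were called. The median over subunits was -0.17, -0.16 and -0.14 in DKD against Sham with quantile normalisation, normexp and the authors' table, and in DKD+enarodustat against Sham -0.28, -0.27 and -0.24 with these, -0.0518 with slide row, -0.0272 with slide and slide row and -0.0596 within slide 1. Leaving out 1 array kept the medians within -0.09 to -0.06, -0.06 to -0.02 and -0.17 to -0.13. The cause of these shifts was not tested. Of all calls, 51.8% were higher in DKD+enarodustat against DKD (32.9% in the authors' table, 71.0% without the filter) and 36.5% in DKD+enarodustat against Sham (63.6% without the filter). For the 21 named subunit probes the sign of the difference changed in 25 of 797, 56 of 797 and 17 of 776 values, and in none of these was the probe called in either setting, so they are not counted as reversals.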
